A study of Mus musculus with 13 samples.

Results

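Among 10 mouse embryos that carry the label xHomo, 5 had little or no RNA of Peg10 and 5 expressed it, and the account below compares these sets across all other genes. The embryos were chosen by their own Peg10 values and not by a label: those below 10 FPKM (xHomo embryos 1, 7, 8, 9 and 10) are called Peg10-lost, and the other 5 (xHomo embryos 2, 3, 4, 5 and 6) Peg10-kept. The series holds 13 embryos, and the other 3 carry the label xHet and serve as reference. All 13 were taken at embryonic day 9.5 on a C57BL/6J background, and neither label is spelled out in the sources used here. The study is about Tet1, which encodes an enzyme that oxidizes 5-methylcytosine, and as far as the study is known its embryos were sired by fathers with a mutation of 1 or both Tet1 copies. Polyadenylated RNA was sequenced, and values are FPKM, fragments per length of transcript and per mapped fragments of the library. Because a measured value and not a label made the sets, Peg10 and its neighbour Sgce are given as a description only, and X and Y loci are left out of every count.

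Peg10 is a domesticated retrotransposon gene of chromosome 6 that is expressed from the paternal copy and is needed for placental development. Sgce, which encodes epsilon-sarcoglycan, lies head to head with it and shares its imprinting control. Low oxygen acts on many genes through hypoxia-inducible factors: prolyl hydroxylases mark the alpha subunits for destruction when oxygen is ample, and without that mark they raise genes of glucose uptake, glycolysis, mitochondrial restraint and vessel growth. Midgestation mouse embryos take up much glucose and use glycolysis heavily while the placental circulation is being set up.

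Peg10 stood at 0.03, 0.01, 0.05, 0.01 and 4.19 FPKM in Peg10-lost embryos 1, 7, 8, 9 and 10, and at 114, 66.8, 119, 127 and 126 FPKM in Peg10-kept embryos 2 to 6. The values nearest the threshold were thus 4.19 FPKM in embryo 10 and 66.8 FPKM in embryo 3. Sgce was 1.31, 0.77, 0.83, 1.23 and 3.33 FPKM in the first set and 28.7, 13.7, 31.1, 31.5 and 28.1 FPKM in the second. The xHet embryos 1 to 3 had 99.8, 99.7 and 57.8 FPKM of Peg10, so none of them belonged with the Peg10-lost embryos. Tet1 itself did not separate the sets, with 1.71 to 2.87 FPKM in Peg10-lost, 1.11 to 2.12 FPKM in Peg10-kept and 1.93 to 2.61 FPKM in xHet embryos (limma adjusted p = 0.329).

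Several features of the libraries bear on what follows. Summed FPKM ran from 579491 to 662936 in Peg10-lost, from 500126 to 587942 in Peg10-kept and from 543948 to 570161 in xHet embryos, and the read depth is unknown. Peg10-kept embryo 3 stood apart: 8.37% of genes lay at least 1 log2 unit from the median of the other xHomo embryos, nearly all of them lower (8.03%), against 0.815% to 2.58% in the other 9. Calls in the gene lists that change without it are given below beside the list. Without it 426 of all 12267 genes passed as higher and 788 as lower. Xist, which coats the inactive X chromosome, was above 1 FPKM in 3 of 5 Peg10-lost, 2 of 5 Peg10-kept and 0 of 3 xHet embryos. Markers of heart (26 of 26), endothelium (26 of 26), neural progenitors (29 of 30) and red cells (28 of 30) were above the filter of a mean of 1 FPKM. Litters and batches are not in the labels, so p-values measure only the spread between these embryos. In bulk RNA, a change in the number of cells of a type and a change per cell cannot be told apart.

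The Peg10-lost embryos had more RNA of genes that respond to low oxygen and of the glycolytic pathway. Of 36 genes listed for this response 35 were tested (Car9 was below the filter), and all 35 had a higher mean on the log2(FPKM+1) scale in Peg10-lost than in Peg10-kept embryos. The rise passed in 23 of them in limma (Benjamini-Hochberg adjusted p at 0.05 over all 12725 genes tested), and 0 passed in the lower direction. Over the 12267 genes open to claims, 125 passed as higher (1.02%) and 9 as lower (0.0734%). In 32 of the 35 genes every Peg10-lost embryo lay above every Peg10-kept embryo, against 4.76% of all genes as higher and 1.12% as lower. An unadjusted p under 0.05 was found for 34 of 35, where the share over all genes was 13% higher and 4.25% lower. The median log2 difference of the list was 1.18, with a range from 0.07 for Eno1 to 2.59 for Ddit4, and that of all genes was 0.05. The list was drawn up with earlier results of these data known and is therefore described, not tested as a set.

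Without Peg10-kept embryo 3, 31 of the 35 genes passed and their median was 1.07, while over all genes 426 passed as higher and 788 as lower. Scaling also changed the split over all genes, to 311 higher and 188 lower with median-of-ratios scaling, 314 and 251 with quantile normalization, and 147 and 213 with rescaling to TPM, which moved the median of all genes to -0.08. In the list 30, 29 and 27 genes passed under these scalings, with medians of 1.11, 1.13 and 1.04. Fewer passed with Xist as a covariate, 11 of 35, and with no filter on low values, 12 of 35. The list medians there were 1.17 and 1.18, and 46 and 57 of all genes passed. Leaving out Peg10-lost embryo 7 left 15 genes passing as higher over all genes, 6 of them in the list, whose median was 1.16. Leaving out embryo 6 or 8 gave 21 and 20 passing genes in all, of which 8 and 7 were in the list, embryos 2, 4, 5, 9 and 10 gave 59, 61, 49, 56 and 56, and embryo 1 gave 251. An exact permutation test per gene cannot go below p = 0.00794 with 5 embryos of 10, and 0 genes passed after adjustment, while 34 of the 35 listed genes had an unadjusted p under 0.05.

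Hypoxia-inducible factors bind a short core that reads ACGTG or GCGTG, so stretches of promoter that hold it are shown for 5 genes of the list with small p or large differences. They come from RefSeq promoter windows of build GRCm38.p6, 250 bases before to 50 after the annotated start, and are written 5′ to 3′ on the gene's strand with each match to either core, on either strand, in capitals. They lie at chr7:138909573-138909633 (minus strand) for Bnip3, chr2:71873118-71873178 (plus) for Pdk1, chr10:78009874-78009934 (minus) for Pfkl, chr12:54204071-54204124 (minus) for Egln3 and chr10:59951853-59951913 (minus) for Ddit4.
Bnip3: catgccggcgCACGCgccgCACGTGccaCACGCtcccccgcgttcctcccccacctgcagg
Pdk1: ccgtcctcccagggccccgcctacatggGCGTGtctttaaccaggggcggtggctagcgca
Pfkl: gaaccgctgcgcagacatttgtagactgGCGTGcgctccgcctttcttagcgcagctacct
Egln3: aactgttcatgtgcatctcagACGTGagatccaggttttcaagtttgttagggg
Ddit4: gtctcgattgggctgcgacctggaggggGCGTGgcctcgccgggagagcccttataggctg
ACGTG, read on both strands, was present in 19 of the 29 listed genes with a window (65.5%), in 2641 of 8864 genes tested (29.8%) and in 6447 of 32851 windows in all (19.6%). GCGTG was present in 22 of 29 (75.9%), 5049 of 8864 (57.0%) and 10639 of 32851 (32.4%). ACGTG overlaps the E-box CACGTG, which other factors bind, and 2349 of the 6447 windows with ACGTG (36.4%) held it. A match is a description of these letters. Binding was not measured.

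**Figure D1:**
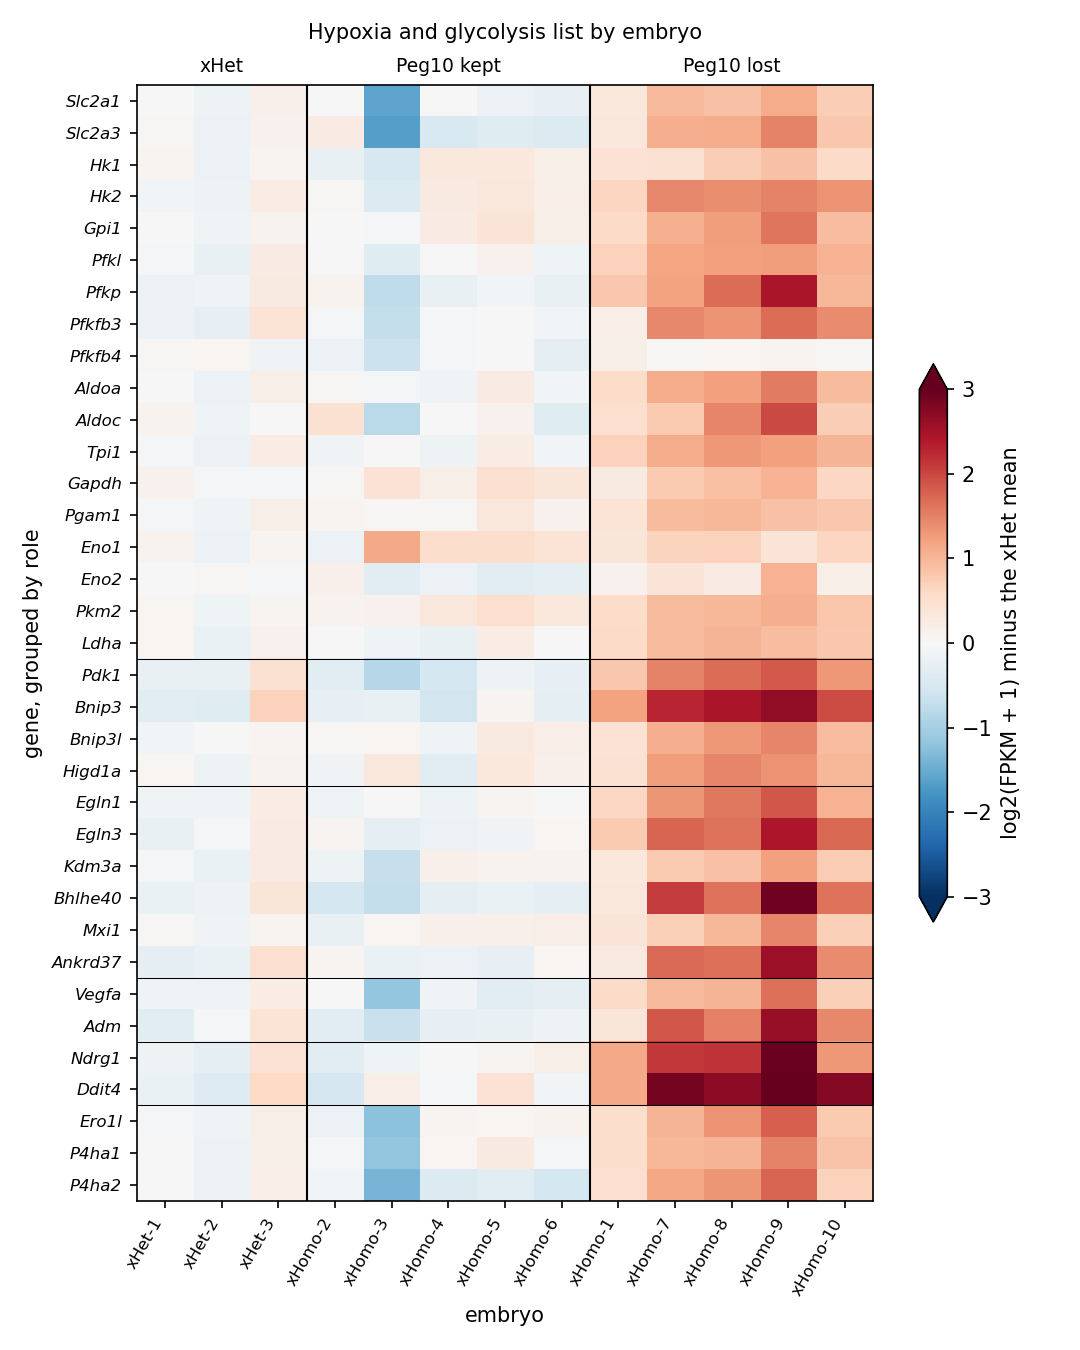
The 35 tested genes of the hypoxia and glycolysis list (rows, grouped by role) in the 13 embryos (columns), coloured by log2(FPKM+1) minus the mean of the 3 xHet embryos, with colours held at 3 and -3 beyond that range. The 5 Peg10-lost columns on the right are red in nearly every row, the Peg10-kept columns are near white, and embryo 3 has the lowest values of its set in 20 of 35 rows.

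Glucose uptake and glycolysis form the largest role in the list, with 10 of 18 genes passing, all higher, and a median log2 difference of 1.0. Pfkl, the liver form of phosphofructokinase, which commits glucose to glycolysis (chromosome 10, 77449694 to 77472541, build mm9 as for all gene positions here), stood at 128, 178, 185, 187 and 162 FPKM in Peg10-lost embryos 1, 7, 8, 9 and 10. It was 79.3, 60.6, 77.7, 86.4 and 71.7 FPKM in Peg10-kept embryos 2 to 6 and 76.2, 67.1 and 93.8 FPKM in xHet embryos 1 to 3. The sets did not overlap, and embryo 1 had the lowest value of the Peg10-lost embryos (log2 difference 1.15, SE 0.13, limma adjusted p = 0.00413). Hk2, the inducible hexokinase that traps glucose in the cell (chromosome 6, 82675021 to 82724448), was 27.9, 49.2, 47.8, 50.7 and 46.2 FPKM in Peg10-lost and 18.1, 12.9, 21.1, 22.5 and 20.2 FPKM in Peg10-kept embryos, with 16.6, 15.8 and 20.5 FPKM in xHet embryos (log2 difference 1.18, SE 0.18, limma adjusted p = 0.0175). Here 4 of the Peg10-lost embryos lay close together and embryo 1 lay below them. Pfkp, the platelet form of phosphofructokinase, was 13.8, 18.5, 25.9, 45.5 and 15.7 FPKM against 8.1, 3.99, 6.27, 7.01 and 6.2 FPKM (log2 difference 1.66, SE 0.28, limma adjusted p = 0.025), with embryo 9 the highest. Pfkfb3, whose product makes the activator of phosphofructokinase, was 8.52, 21.3, 20.2, 25.4 and 21.2 FPKM against 6.87, 3.99, 6.99, 7.18 and 6.79 FPKM (log2 difference 1.41, adjusted p = 0.0277).

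Abundant enzymes of the pathway passed with smaller log2 differences. Ldha, which turns pyruvate into lactate (chromosome 7, 54101174 to 54110997), was 1293, 1670.4, 1762, 1665 and 1524 FPKM in Peg10-lost embryos 1, 7, 8, 9 and 10 and 877, 791, 746, 1009.8 and 875 FPKM in Peg10-kept embryos 2 to 6, a 1.84-fold ratio of means (log2 difference 0.88, SE 0.13, limma adjusted p = 0.0141). Aldoa, an aldolase, was 665 to 1333 FPKM against 422 to 537 FPKM, and Tpi1, triosephosphate isomerase, 404 to 619 FPKM against 225 to 292 FPKM (limma adjusted p = 0.0178 and 0.00511). Pgam1, a phosphoglycerate mutase, had a log2 difference of 0.69 and Gpi1, the glucose phosphate isomerase, one of 0.93, and both passed. In none of these 5 did the sets overlap. Gapdh was 1959 to 3371 FPKM in Peg10-lost and 1682 to 2287 FPKM in Peg10-kept embryos, which overlap, and did not pass (log2 difference 0.43, adjusted p = 0.232). Eno1, which encodes an enolase, had a difference of 0.07 (adjusted p = 0.895) that turned negative under TPM and median-of-ratios scaling and without embryo 2. The highest Eno1 value, 279 FPKM, was in Peg10-kept embryo 3. Pkm2 (log2 difference 0.61, adjusted p = 0.0628), Hk1 (0.60, 0.106), Aldoc (1.22, 0.0808), Eno2 (0.58, 0.15) and Pfkfb4 (0.30, 0.279) did not pass either. Several of these genes have processed pseudogenes, among them Gapdh, Ldha, Tpi1, Pgam1, Eno1 and Aldoa, and how reads with more than 1 match were shared is not given in the sources used here.

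Of the glucose carriers, Slc2a3 passed and Slc2a1 did not. Slc2a3, the high-affinity carrier GLUT3 (chromosome 6, 122677827 to 122692763), was 152, 254, 258, 339.6 and 210.2 FPKM in Peg10-lost embryos 1, 7, 8, 9 and 10 and 143, 37.5, 86.2, 92.3 and 89.9 FPKM in Peg10-kept embryos 2 to 6 (log2 difference 1.49, SE 0.31, limma adjusted p = 0.0494), with 122, 106 and 132 FPKM in xHet embryos. Embryo 3 was the lowest of all and embryo 2 was next to embryo 1. Slc2a1, the widespread carrier GLUT1, was 338, 535, 502, 583 and 452 FPKM against 273, 90.4, 270.3, 239 and 227 FPKM (log2 difference 1.20, SE 0.28, limma adjusted p = 0.0713), without overlap. Without embryo 3, the lowest here too, its adjusted p was 0.0147. The lactate exporter gene Slc16a3, named after its values were seen, was 208 to 300.3 FPKM against 36.8 to 112 FPKM and passed (log2 difference 1.68, adjusted p = 0.0178).

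All 4 listed genes that act on mitochondria passed as higher. Bnip3, a receptor for the removal of mitochondria (chromosome 7, 146082519 to 146101189), had the smallest p of all genes open to claims. It stood at 86.9, 185, 206, 239 and 146 FPKM in Peg10-lost embryos 1, 7, 8, 9 and 10, at 31, 31.7, 25, 39.3 and 30.0 FPKM in Peg10-kept embryos 2 to 6 and at 29.2, 28.6 and 59.9 FPKM in xHet embryos 1 to 3. Every Peg10-lost value was above every other, and xHet embryo 3 was the highest of the rest (172 ± 58.6 against 31.4 ± 5.12 FPKM (SD, n = 5 each), log2 difference 2.35, SE 0.24, limma adjusted p = 0.0026). Pdk1, the kinase that keeps pyruvate out of the citric acid cycle (chromosome 2, 71711329 to 71741915), was 32.7, 53, 60.6, 67.5 and 45.9 FPKM in Peg10-lost and 14.4, 9.68, 12.3, 16.2 and 15 FPKM in Peg10-kept embryos, with 15.3, 15.3 and 25.5 FPKM in xHet embryos (log2 difference 1.84, SE 0.19, limma adjusted p = 0.00266). Bnip3l, the close relative of Bnip3, was 55.4 to 114 FPKM against 37.4 to 49.1 FPKM, and Higd1a, a respiratory chain assembly factor, 29.6 to 60.5 FPKM against 17.1 to 27.3 FPKM, both without overlap (limma adjusted p = 0.0269 and 0.0343).

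All 6 genes of oxygen sensing and feedback had a higher mean in Peg10-lost embryos and 4 passed, with a median difference of 1.48. Egln1 and Egln3 encode prolyl hydroxylases that mark hypoxia-inducible factors for destruction and are themselves targets of them. Egln3 (chromosome 12, 55279968 to 55304861) was 5.35, 11.4, 10.4, 18.8 and 11.2 FPKM in Peg10-lost embryos 1, 7, 8, 9 and 10 and 2.94, 2.04, 2.26, 2.42 and 2.87 FPKM in Peg10-kept embryos 2 to 6 (log2 difference 1.74, SE 0.24, limma adjusted p = 0.00976). Egln1 was 29.1, 47.9, 57.1, 69.9 and 39.4 FPKM against 16.7, 18.5, 16.5, 19.5 and 18.2 FPKM (log2 difference 1.34, SE 0.19, limma adjusted p = 0.0127). Bhlhe40, a transcriptional repressor, was 2.49, 10.7, 7.55, 19.7 and 7.53 FPKM against 0.91, 0.67, 1.28, 1.38 and 1.23 FPKM (log2 difference 2.13, SE 0.37, limma adjusted p = 0.0252), with embryo 9 far above embryo 1. Ankrd37 passed with a difference of 1.62 (adjusted p = 0.0426). The demethylase gene Kdm3a, at 0.89 (adjusted p = 0.05), and Mxi1, a Myc antagonist, at 0.79 (0.0593), did not pass but had no overlap.

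Among the remaining listed genes, both secreted factors passed. Vegfa, the main growth factor of blood vessels (chromosome 17, 46153943 to 46169326), was 43.4, 57, 59.2, 91.9 and 47.9 FPKM in Peg10-lost and 28.8, 12.2, 26.6, 23 and 23.3 FPKM in Peg10-kept embryos, against 26.6, 26.5 and 33.5 FPKM in xHet embryos (log2 difference 1.36, SE 0.24, limma adjusted p = 0.0267). Adm, the vasodilator adrenomedullin (chromosome 7, 117771183 to 117773333), was 3.63, 12.1, 9.24, 20.9 and 8.71 FPKM against 1.82, 1.25, 2.03, 2.07 and 2.22 FPKM (log2 difference 1.89, SE 0.32, limma adjusted p = 0.025), and embryo 1 was close to xHet embryo 3 at 3.73 FPKM. Ddit4, an inhibitor of mTORC1 signalling (chromosome 10, 59412423 to 59414518), showed the largest difference of the list. It was 31.9, 109, 95.4, 177 and 101 FPKM in Peg10-lost embryos, 9.66, 16.4, 13.7, 19.5 and 13.3 FPKM in Peg10-kept embryos and 12.2, 10.5 and 21.7 FPKM in xHet embryos (log2 difference 2.59, SE 0.37, limma adjusted p = 0.0109). Ndrg1, a stress-induced gene of differentiating cells, was 5.76, 12.4, 12.9, 23.4 and 6.6 FPKM against 1.46, 1.83, 2.12, 2.26 and 2.47 FPKM (log2 difference 1.98, SE 0.30, limma adjusted p = 0.0158). Of the 3 genes of protein folding and collagen hydroxylation P4ha2, a collagen prolyl hydroxylase subunit, passed at 1.64 (adjusted p = 0.0212), while P4ha1 was at 1.17 (0.0583) and Ero1l at 1.32 (0.0564).

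**Figure D2:**
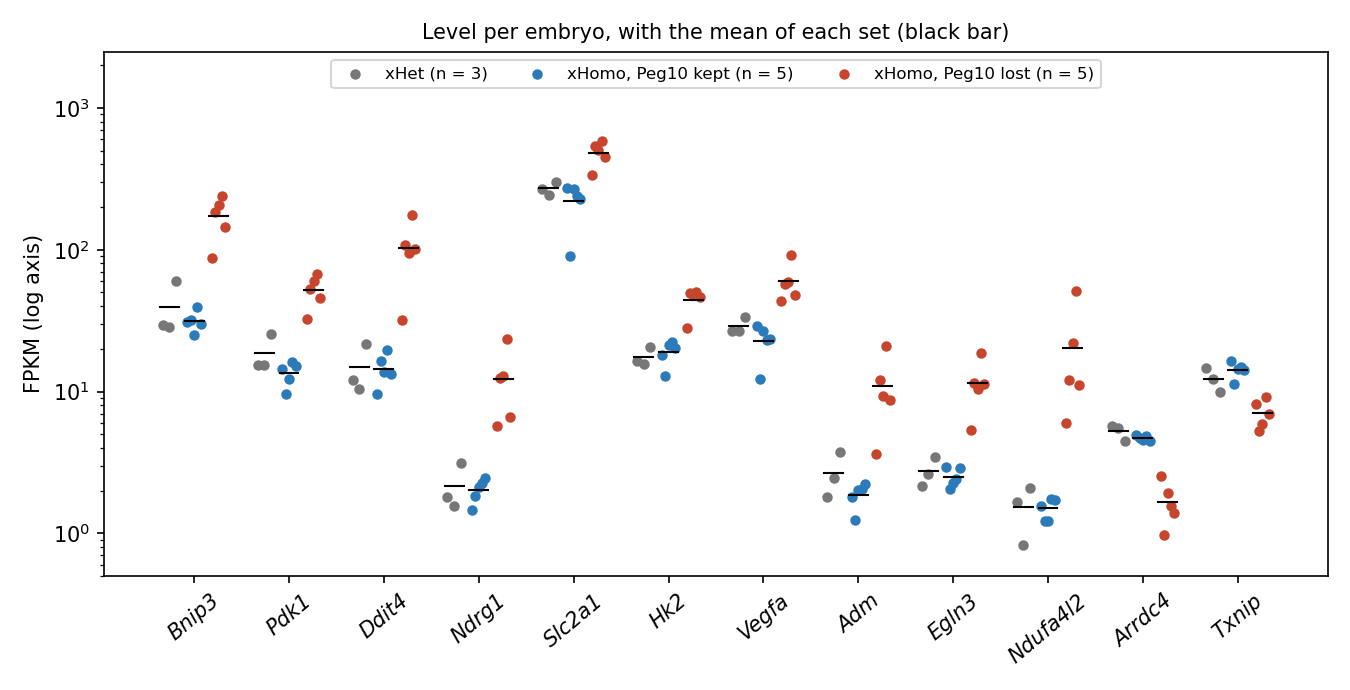
FPKM on a log axis of 12 genes in each embryo, with points for xHet (grey, n = 3), Peg10-kept (blue, n = 5) and Peg10-lost (red, n = 5) embryos and a black bar at each mean. For the first 10 genes the red points lie above the blue ones, and for Arrdc4 and Txnip below them, while blue and grey points mostly share a range and the low blue point of Slc2a1 and Vegfa is embryo 3.

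The Peg10-lost embryos differed in how far these genes were above the reference. The list median, taken against the xHet mean, was 0.51 in embryo 1, 0.92 in embryo 10, 1.08 in embryo 7, 1.29 in embryo 8 and 1.50 in embryo 9. Embryo 9 had the highest value of the Peg10-lost embryos for 29 of 35 genes and embryo 1 the lowest for 34. The Peg10-kept embryos 2 to 6 had medians of -0.06, -0.33, -0.05, 0.10 and -0.04, and the xHet embryos 1 to 3 of -0.04, -0.15 and 0.18. The lowest Peg10-lost median was thus above the highest of the other 8 embryos. Peg10-lost embryo 10, which retained 4.19 FPKM of Peg10, had the lowest list median but that of embryo 1 of its set. Among embryos with Xist below 1 FPKM (Peg10-lost 1 and 8, Peg10-kept 4, 5 and 6) all 35 genes were higher in the Peg10-lost ones, with a median of 0.87. Among embryos with Xist above 1 FPKM (Peg10-lost 7, 9 and 10, Peg10-kept 2 and 3) all 35 were again higher, with a median of 1.48. Of all 12267 genes 4969 and 9791 had a higher mean in these subsets, with medians of -0.06 and 0.22. The subsets are small, and in limma 0 of the 35 genes passed in either, with 31 and 30 at an unadjusted p under 0.05.

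The xHet embryos served as a reference that the choice of embryos did not use. In a limma fit of all 13 embryos in 3 sets, 21 of the 35 genes passed as higher in Peg10-lost than in xHet embryos, with a median difference of 1.08, where 224 of all genes passed as higher (1.83%) and 6 as lower (0.0489%). Between Peg10-kept and xHet embryos 0 of the 35 passed, 1 had an unadjusted p under 0.05, 12 had a higher mean, and the median was -0.09. There 1 gene of all passed as higher (0.00815%), the heme synthesis gene Alad, and 0 as lower (0%), with 742 higher and 338 lower at an unadjusted p under 0.05. Alad was 54 to 67.1 FPKM in Peg10-lost, 47 to 60.5 FPKM in Peg10-kept and 26.3 to 26.7 FPKM in xHet embryos, so both xHomo sets were above the reference. Both comparisons share the 3 xHet embryos. In 27 of 35 listed genes every Peg10-lost embryo lay above all 8 other embryos.

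The genes of the factors that drive this response did not pass as higher at the RNA level, and are named here after their values were seen. Hif1a, the main oxygen-regulated subunit, was 23.9, 22.1, 25.7, 23.3 and 27.7 FPKM in Peg10-lost embryos 1, 7, 8, 9 and 10 and 28.3, 25, 29.5, 36.3 and 36.6 FPKM in Peg10-kept embryos 2 to 6, a difference of -0.32 that did not pass (adjusted p = 0.191). Without embryo 3 it passed as lower (adjusted p = 0.0363). Epas1, another alpha subunit, differed by 0.09, its partner Arnt by 0.14 and Vhl, part of the ligase that destroys the alpha subunits, by 0.19, and none passed (adjusted p = 0.737, 0.567 and 0.352). Hypoxia-inducible factors are controlled mostly at the protein level, which these data do not show. Epo, the red cell growth factor gene from which the pathway was first worked out, was 3.37, 4.67, 5, 3.78 and 4.18 FPKM against 1.76, 1.68, 2.88, 2.29 and 2.24 FPKM and passed (log2 difference 0.72, SE 0.13, limma adjusted p = 0.0311).

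Outside the list, the passing genes with the largest rises included Ndufa4l2, Cox4i2, Mt1 and Mt2. Ndufa4l2, an inhibitory relative of a respiratory chain subunit (chromosome 10, 126951995 to 126959500), was 5.97, 12.2, 21.9, 50.8 and 11.1 FPKM in Peg10-lost embryos 1, 7, 8, 9 and 10 and 1.57, 1.23, 1.23, 1.75 and 1.73 FPKM in Peg10-kept embryos 2 to 6, a 13.6-fold ratio of means (log2 difference 2.75, SE 0.42, limma adjusted p = 0.0171). Its locus in the table is joined with that of Shmt2, a serine hydroxymethyltransferase gene that also passed at 0.79, so reads of the pair may have been shared. Cox4i2, the hypoxic isoform of a cytochrome c oxidase subunit (chromosome 2, 152579909 to 152590773), was 9.36, 16.8, 21.3, 38.8 and 14.9 FPKM against 3.73, 3.42, 2.63, 4.36 and 2.36 FPKM (log2 difference 2.18, SE 0.30, limma adjusted p = 0.00949). The standard isoform Cox4i1, named after its values were seen, was 535 to 590.1 FPKM against 411 to 529 FPKM and did not pass (log2 difference 0.17, adjusted p = 0.426).

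The metallothioneins Mt1 and Mt2, neighbouring genes for metal-buffering proteins (chromosome 8, 96696518 to 96704227), behaved alike. Mt1 was 152, 201, 147, 378 and 129 FPKM in Peg10-lost and 17.6, 64.9, 33.8, 67.5 and 29.1 FPKM in Peg10-kept embryos, and 50.1, 49.4 and 65.2 FPKM in xHet embryos (log2 difference 2.26, SE 0.38, limma adjusted p = 0.0248). Mt2 was 147, 190.2, 149.5, 345 and 130.3 FPKM and 20.1, 68.7, 27.5, 60.7 and 32.9 FPKM in the same sets (log2 difference 2.22, SE 0.35, limma adjusted p = 0.0178). Their sequences are similar, so the pair is less certain than single genes, and Peg10-kept embryos 3 and 5 were in the xHet range or slightly above while embryos 2, 4 and 6 were below it. Stc2, a secreted glycoprotein gene, was 5.36, 14.1, 14.4, 30.9 and 12.4 FPKM against 2.86, 1.23, 3.71, 2.89 and 2.98 FPKM (log2 difference 1.99, SE 0.35, limma adjusted p = 0.0267). Ier3, an early response gene that acts on cell survival, was 3.41, 9.95, 8.75, 22.7 and 7.24 FPKM against 1.73, 1.68, 1.73, 1.15 and 1.33 FPKM (log2 difference 1.97, SE 0.34, limma adjusted p = 0.0252). H2-Ab1, a chain of the class II histocompatibility complex, was 3.92, 8.31, 10.7, 20.2 and 6.67 FPKM against 1.39, 1.28, 2.52, 2.21 and 1.35 FPKM (log2 difference 1.85, SE 0.32, limma adjusted p = 0.0252). In Peg10-lost embryos each of these genes was highest in embryo 9, and for Stc2, Ier3 and H2-Ab1 lowest in embryo 1, as in the hypoxia list.

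Further passing genes, again named after their values were seen, are given singly and not as a group. Galk1, galactokinase, was 94 to 129.8 FPKM in Peg10-lost and 50.3 to 61.2 FPKM in Peg10-kept embryos (log2 difference 0.99, limma adjusted p = 0.00359) and Pgm2, a phosphoglucomutase gene that links glycogen with glycolysis, 34.8 to 87.9 FPKM against 15.5 to 21.3 FPKM (1.55, 0.00949). The glycogen synthase gene Gys1, the glycogen phosphorylase gene Pygl and Ppp1r3c, which encodes a glycogen-targeting subunit of protein phosphatase, passed at 0.92, 0.97 and 1.62. The branching enzyme gene Gbe1 did not pass (0.26, adjusted p = 0.376). Upp1, uridine phosphorylase, rose by 1.40 and Ak4, a mitochondrial adenylate kinase gene, by 0.99 (adjusted p = 0.00779 and 0.0108). Fam162a, a mitochondrial gene induced by low oxygen, was 215 to 409 FPKM against 83.1 to 122 FPKM (log2 difference 1.55, adjusted p = 0.00495). None of the genes that passed here had overlapping sets.

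Against these rises stood 9 genes that passed as lower, among them Arrdc4 and Txnip, related genes that restrain glucose uptake. Arrdc4, an arrestin-domain gene (chromosome 7, 75881880 to 75894124), was 2.54, 0.97, 1.93, 1.55 and 1.39 FPKM in Peg10-lost embryos 1, 7, 8, 9 and 10 and 4.97, 4.72, 4.57, 4.9 and 4.47 FPKM in Peg10-kept embryos 2 to 6. The xHet embryos had 5.72, 5.5 and 4.47 FPKM, so the Peg10-lost values lay below all others, and the mean of the Peg10-kept embryos was 2.82-fold higher (log2 difference -1.12, SE 0.15, limma adjusted p = 0.00779). Txnip, the thioredoxin-binding relative of Arrdc4 (chromosome 3, 96359691 to 96370724), was 8.14, 5.28, 5.89, 9.15 and 6.98 FPKM against 16.4, 11.2, 14.5, 14.8 and 14.2 FPKM, and 14.6, 12.2 and 9.97 FPKM in xHet embryos (log2 difference -0.93, SE 0.14, limma adjusted p = 0.0175). C1qtnf3, a secreted factor gene, was 1.98, 0.68, 0.94, 1 and 1.16 FPKM against 3.08, 1.84, 3.7, 4.08 and 3.66 FPKM (log2 difference -0.99, SE 0.19, limma adjusted p = 0.0376), with an overlap between Peg10-lost embryo 1 and Peg10-kept embryo 3.

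The other 6 passing genes fell by less. Pinx1, a nucleolar protein gene that binds telomerase, was 12.9, 13, 13.8, 9.01 and 13 FPKM in Peg10-lost and 22, 22.8, 18.1, 22.9 and 21.9 FPKM in Peg10-kept embryos (log2 difference -0.77, SE 0.12, limma adjusted p = 0.0173). Rars, arginyl-tRNA synthetase, was 50.8 to 56.9 FPKM against 65 to 81.6 FPKM (log2 difference -0.43, adjusted p = 0.0445). Gfm1, a mitochondrial elongation factor gene, Trmt61a, a tRNA methyltransferase subunit gene, Gmps, the GMP synthase gene, and Coq10b, a coenzyme Q binding protein gene, differed by -0.46, -0.42, -0.51 and -0.69. Mphosph10, Ddx21 and Ncl, genes of nucleolar proteins, were next by p, stood at -0.46, -0.67 and -0.42 and did not pass (adjusted p = 0.0502, 0.0502 and 0.0541). For Gmps, Rars and Ncl it was the Peg10-kept embryos that lay apart from the xHet range: Rars was 55.3 to 57.6 FPKM in xHet embryos, close to the Peg10-lost values, and its difference against xHet embryos was -0.07 for the Peg10-lost and 0.35 for the Peg10-kept set.

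Of 50 imprinted genes tested besides Peg10 and Sgce, 0 passed in limma, where 1.02% and 0.0734% of all genes passed as higher and lower, so that a list of this length would hold few calls at the share of all genes. An unadjusted p under 0.05 was found for 0 of 21 paternally expressed genes (median difference -0.01) and for 3 of 29 maternally expressed genes, 2 higher and 1 lower (median 0.03). The shares over all genes were 13% higher and 4.25% lower. In the exact permutation test 0 of the 12267 genes open to claims passed, so it cannot tell imprinted genes from the rest. Other settings gave single calls: the paternally expressed amino acid transporter gene Slc38a4 passed as lower without embryo 3 (log2 difference -0.40, adjusted p = 0.0229), and Asb4 passed as higher with median-of-ratios scaling and quantile normalization (adjusted p = 0.0373 and 0.0222). With array weights 2 passed as higher and 7 as lower, where 3917 of all genes passed. The sets did not overlap in 1 of the 50, against 4.76% of all genes as higher and 1.12% as lower. This was Asb4, a maternally expressed gene of the same chromosomal domain (chromosome 6, 5333386 to 5383021). It was 33.2, 36.3, 38.8, 38.4 and 37.5 FPKM in Peg10-lost embryos 1, 7, 8, 9 and 10, 21.5, 20.9, 27.4, 31.5 and 32.5 FPKM in Peg10-kept embryos 2 to 6 and 20.4, 19.4 and 26.2 FPKM in xHet embryos (log2 difference 0.47, SE 0.13, limma adjusted p = 0.11). Grb10, a growth-restraining adaptor gene, was 217, 244, 259.5, 500.2 and 254 FPKM against 436, 369.8, 527, 298 and 576 FPKM (log2 difference -0.61, adjusted p = 0.225). Igf2r, the receptor that clears Igf2, was 58.6 to 110.0 FPKM against 17.8 to 65.6 FPKM (0.77, 0.265). Snrpn, Zrsr1 and Ndn, next in order of p, differed by 0.20, -0.22 and -0.23 (adjusted p = 0.318, 0.32 and 0.321). The growth genes Igf2, H19 and Cdkn1c differed by 0.12, 0.25 and -0.18 and did not pass.

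The neighbours of Peg10 on chromosome 6 were examined in turn, and none of the 8 genes tested within 1 Mb passed in limma, with Asb4 alone at an unadjusted p under 0.05. Over all genes 13% were higher and 4.25% lower at such a p. Casd1, at -104 kb, differed by 0.11 (SE 0.22), and Ppp1r9a, a maternally expressed neurabin gene at 143 kb, by 0.41 (SE 0.22). Ppp1r9a was 8.54, 3.07, 9.18, 7.09 and 7.59 FPKM in Peg10-kept embryos 2 to 6 and 8.39 to 11.3 FPKM in the Peg10-lost embryos, so embryo 3 alone was low. Col1a2, a collagen chain gene, differed by 0.50 (SE 0.29), with embryo 3 again the lowest at 27.6 FPKM. Gng11, Bet1, Pon3 and Pon2 differed by 0.17, 0.09, 0.01 and -0.17.

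**Figure D3:**
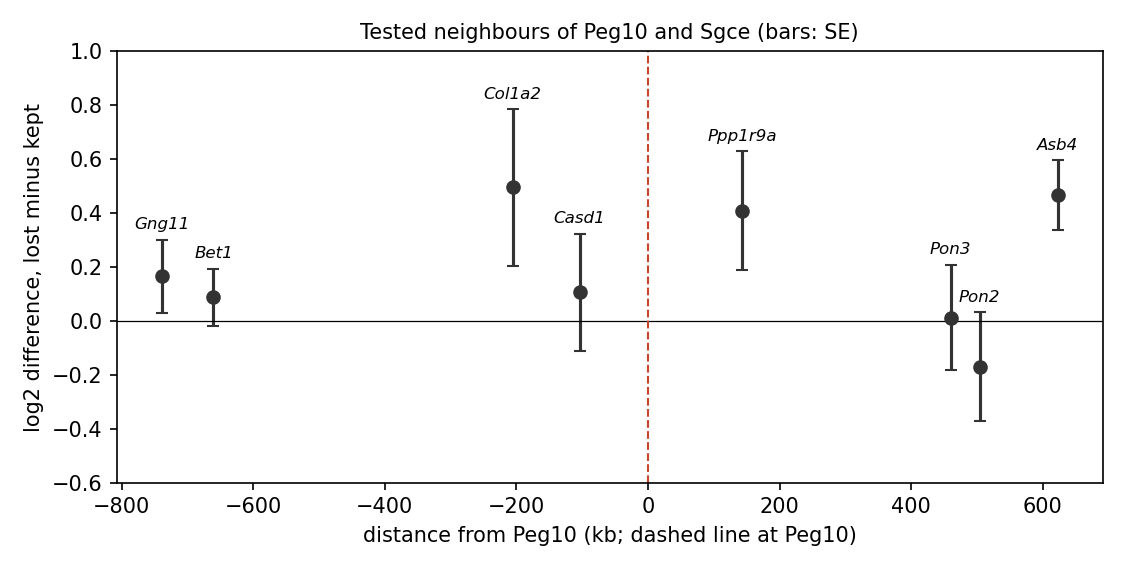
Log2 difference between Peg10-lost and Peg10-kept embryos (points, with bars for 1 SE) of the 8 tested genes within 1 Mb of Peg10, by distance from it in kb. Asb4, at 623 kb, has the difference farthest from 0 in units of its error, and the others lie between -0.17 and 0.50.

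Single Peg10-lost embryos had further imprinted genes far from the xHet mean. Departures are values 1 log2 unit or more away from the xHet mean. Peg10-lost embryo 1 departed at Peg3 (4.99 FPKM) and Airn, embryo 7 at Airn, Meg3 (0.69 FPKM), Rian and Mirg, and embryo 10 at Airn and Impact. Embryo 9 departed at Magel2, Mest (296 FPKM), Airn, Grb10 and Ddc. Embryo 8 departed at 0 of the 50 genes, and its hypoxia list median was 1.29, above those of embryos 1, 7 and 10. Peg10-kept embryos had 2 to 12 departures, 12 of them in embryo 3. Peg3, a paternally expressed zinc finger gene, was 0.05 FPKM in Peg10-kept embryo 4, and Nnat was 27.3 FPKM in Peg10-kept embryo 5, whose hypoxia list medians were -0.05 and 0.10. Airn departed in 4 of 5 Peg10-lost embryos, downward in embryos 1 and 7 and upward in embryos 9 and 10, and also in Peg10-kept embryos 2 and 4 and in xHet embryos 2 and 3. It overlaps Igf2r in one locus of the table, and its values are uncertain.

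Among stress lists, the integrated stress response, a program that is induced when translation is held back, had 24 of 27 genes with a higher mean in Peg10-lost embryos (60.2% of all genes had one), and 2 passed as higher, against 1.02% of all genes. Its median was 0.27. Without embryo 3, 4 passed as higher, with a median of 0.22. Vldlr, a lipoprotein receptor gene, was 5.55, 9.45, 11.3, 15.1 and 9.48 FPKM against 2.47, 0.96, 3.57, 2.81 and 2.77 FPKM (log2 difference 1.66, SE 0.26, limma adjusted p = 0.0175), and Shmt2 was 65.2 to 102 FPKM against 34.5 to 56.1 FPKM (adjusted p = 0.0429). The locus of Shmt2 is joined with that of Ndufa4l2, so reads may have been shared and its call is less certain. Trib3, a pseudokinase gene, was 2.94, 4.16, 4.28, 11.2 and 2.71 FPKM against 1.2, 1.16, 1.01, 2.33 and 0.88 FPKM and did not pass (0.0696). The list median against the xHet mean was 0.78 in embryo 9 and 0.05 to 0.34 in the other Peg10-lost embryos, so this list was led by 1 embryo. Among 16 immediate early genes Ier3 passed and the median was 0.17. Of 20 p53 targets 0 passed, with 3 higher and 2 lower at an unadjusted p under 0.05 and a median of 0.07. Without embryo 3, 2 of them, Gtse1 and Aen, passed as lower and the median was -0.001, and under TPM rescaling Aen alone passed.

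Heat shock and cell cycle genes mostly had lower means in Peg10-lost embryos, and whether any passed depended on scaling and on embryo 3. Of 16 heat shock genes 12 had a lower mean, 7 at an unadjusted p under 0.05 (4.25% of all genes), 0 passed and the median was -0.18. With median-of-ratios scaling, TPM rescaling and quantile normalization 4, 6 and 7 passed as lower, where 188, 213 and 251 of all 12267 genes did. Hsph1, a large chaperone gene, was 55.8, 48.5, 45.6, 29 and 52.4 FPKM against 68.2, 57.6, 69, 90.5 and 82.6 FPKM and 58.9, 57 and 53.8 FPKM in xHet embryos (adjusted p = 0.0972). Against the xHet mean the list median was 0.21 to 0.50 in Peg10-kept and -0.23 to 0.05 in Peg10-lost embryos, and -0.11 to 0.06 in xHet embryos, with Peg10-lost embryo 9 the lowest. In the fit with xHet embryos 2 of the 16 genes passed as higher in Peg10-lost and 0 in Peg10-kept embryos, where 7 had an unadjusted p under 0.05. Of 31 proliferation genes 27 had a lower mean, 10 at an unadjusted p under 0.05 and 0 passing, with a median of -0.16, and 1, 2 and 2 passed as lower under the same scalings. Rrm2, a subunit of ribonucleotide reductase, was 164, 160.1, 157, 109 and 163 FPKM against 185, 193, 203, 251 and 231 FPKM (adjusted p = 0.105). Without embryo 3, 5 heat shock and 4 proliferation genes passed as lower, while 788 of all 12267 genes did and the median of all genes was -0.02.

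Histone genes of the replication-dependent kind, which as a rule make messages without a poly(A) tail, had a higher mean in 24 of 24 cases, which was 21 of 24 after TPM rescaling. Of all 12267 genes 60.2% had a higher mean, and after TPM rescaling 4465 had one. The list median was 0.52, and Hist1h3d passed, as 1 of 24, or of 4 without embryo 3 (6.61, 4.65, 4.56, 5.05 and 4.1 FPKM against 2.83, 1.81, 3.5, 2.45 and 2 FPKM, adjusted p = 0.04). Against the xHet mean the list median was 0.47 to 1.14 in Peg10-lost, 0.10 to 0.39 in Peg10-kept and -0.13 to 0.15 in xHet embryos. It was highest in embryo 1, where the hypoxia list was lowest of the Peg10-lost embryos. These genes thus moved with the same split, and their part in the other results was not tested. Histone genes are near-identical copies, and single members are uncertain. Of 243 small RNA genes tested 0 passed, with 14 higher and 9 lower at an unadjusted p under 0.05.

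**Figure D4:**
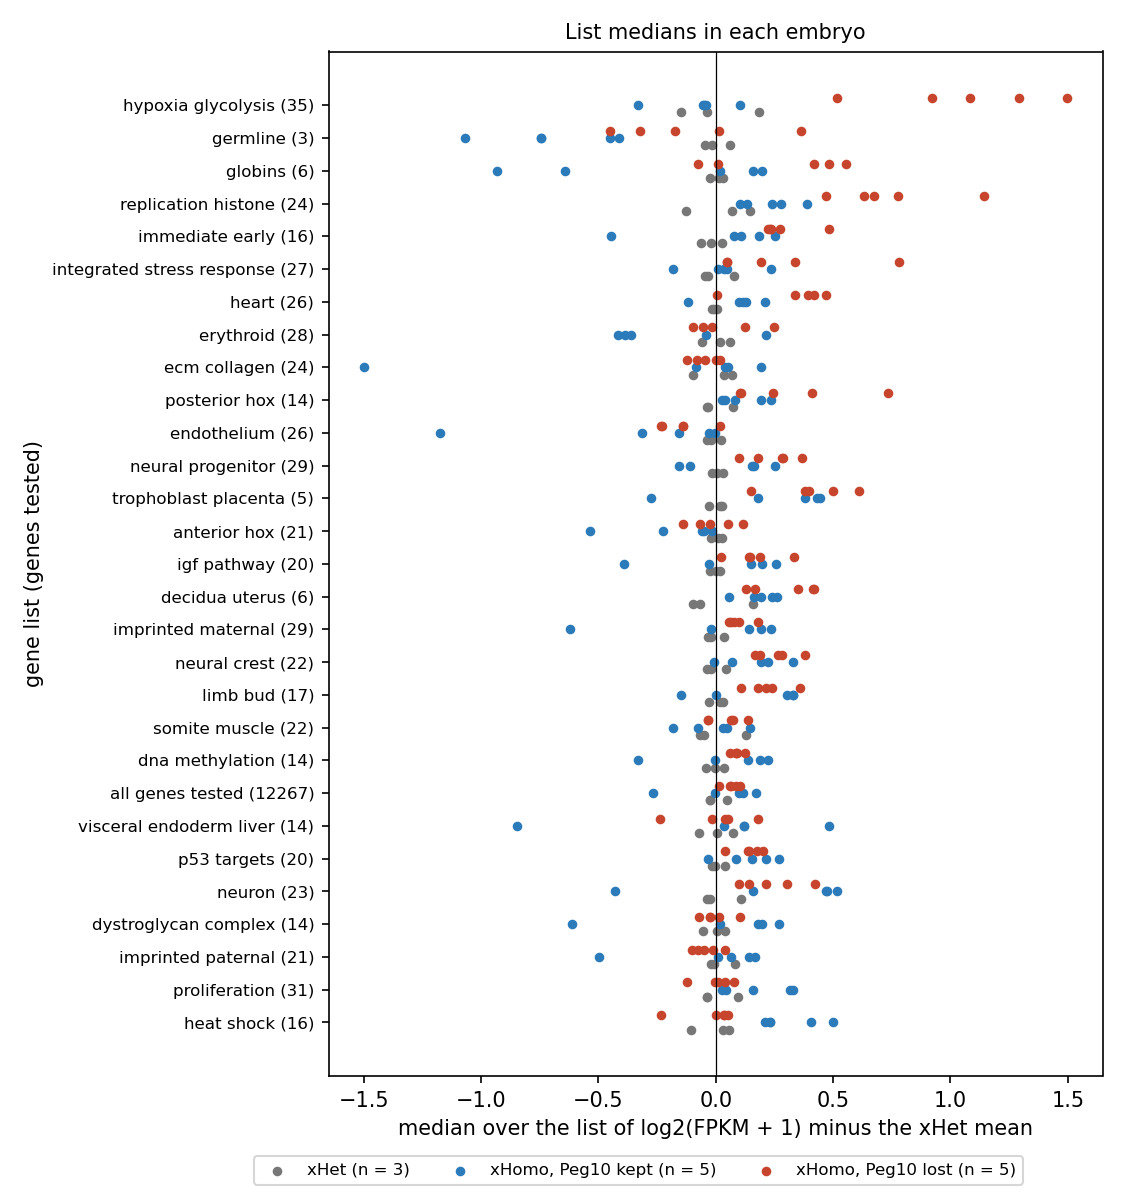
Median over each gene list of log2(FPKM+1) minus the xHet mean, 1 point per embryo (grey xHet, n = 3, blue Peg10-kept, n = 5, red Peg10-lost, n = 5), with the number of genes tested after each name. The hypoxia and glycolysis list has red points from 0.51 to 1.50 clear of all others, the histone list has red points from 0.47 upward, and the farthest blue points to the left in several lists are embryo 3.

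In the lists of tissue markers (red cells, globins, heart, endothelium, neural progenitors, neurons, neural crest, somites, limb buds and Hox genes) 0 genes passed in limma with all 10 embryos, and the counts at an unadjusted p under 0.05 are given below for the lists described. Without embryo 3 single genes passed: as higher the red cell gene Ppox, the endothelial genes Flt1 and Sox7, the heart gene Nkx2-5, the neural progenitor genes Hes1 and Foxb1 and the posterior Hox gene Hoxd9. As lower passed Cd34 (endothelium), Tbx20 (heart), Erbb3 (neural crest), and Pax1 and Myog (somites). Of all 12267 genes, 426 passed as higher and 788 as lower without embryo 3. Scaling gave calls too. Over all genes, 311 passed as higher and 188 as lower with median-of-ratios scaling. Quantile normalization gave 314 and 251, and TPM rescaling 147 and 213. Irx3 and Foxb1 (neural progenitors) and Ppox passed as higher under median-of-ratios scaling and quantile normalization. Foxb1 also passed under TPM rescaling, and Sox7 and Foxd3 (neural crest) under median-of-ratios scaling. Myog passed as lower under median-of-ratios scaling and quantile normalization, and Pax1 under quantile normalization and TPM rescaling. Red cell genes had a higher mean in 26 of 28 cases (23 after TPM rescaling), 5 at an unadjusted p under 0.05, with a median of 0.24, and their summed level was 414 to 492 FPKM in Peg10-lost, 291 to 484 FPKM in Peg10-kept and 408 to 434 FPKM in xHet embryos. All 6 globin genes tested had a higher mean (5 after TPM rescaling), with a median of 0.52 and sums of 9827 to 15681 FPKM against 5239 to 12434 FPKM. Of all 12267 genes 60.2% had a higher mean, and after TPM rescaling 4465 had one. Hba-x, the embryonic alpha-like globin, was 3136, 3249.9, 2119, 3353 and 2237 FPKM against 2118, 2601, 1086, 2381 and 1189 FPKM and 1958, 2041 and 1983 FPKM in xHet embryos (adjusted p = 0.252). The globins were lowest in Peg10-kept embryos 4 and 6, so part of this difference lay in those embryos. Whether the amount of blood bears on the hypoxia list was not tested.

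In the heart list 21 of 26 genes had a higher mean in Peg10-lost embryos, 7 at an unadjusted p under 0.05, with a median of 0.19, where 60.2% of all genes had a higher mean and 13% had such a p as higher. After TPM rescaling 16 of 26 had a higher mean, with a median of 0.05. Of all 12267 genes 4465 then had one, and their median was -0.08. Among embryos with low Xist 13 of 26 had a higher mean, with a median of -0.003. Among those with high Xist it was 24 of 26, with a median of 0.35. Of all 12267 genes 4969 had a higher mean in the low-Xist subset and 9791 in the high-Xist subset, with medians of -0.06 and 0.22. The Peg10-kept embryos of the high-Xist subset were 2 and 3. Myl3, Nkx2-5 and Csrp3 passed as higher without embryo 1, and 0 genes of the list as lower. Nppb, a natriuretic peptide gene of strained heart muscle, was 17.8, 20.8, 24.9, 79.3 and 16.3 FPKM against 19.6, 2.71, 8.45, 6.57 and 6.2 FPKM and 12.2, 11.6 and 11.7 FPKM in xHet embryos (log2 difference 1.71, SE 0.48, limma adjusted p = 0.114). Embryo 9 had the highest value, and Peg10-kept embryo 2 lay above Peg10-lost embryos 1 and 10. Myl3, a ventricular myosin light chain gene, was 43.3, 66.1, 64.5, 65.9 and 67.4 FPKM against 52.5, 38.4, 42, 41.4 and 38.4 FPKM (adjusted p = 0.101). Endothelial genes had 5 of 26 higher at an unadjusted p under 0.05, against 13% of all genes, and a median of 0.16. Without embryo 3 the median was -0.01, 12 of 26 had a higher mean, and 3 higher and 5 lower had such a p. Of all 12267 genes 5766 then had a higher mean, and 1500 higher and 2138 lower had such a p. Flt1, a Vegfa receptor gene, was 6.91, 6.18, 6.01, 6.4 and 5.89 FPKM against 5.39, 1.38, 4.42, 4.11 and 3.35 FPKM (adjusted p = 0.151), and embryo 3 was low across the list. Of neural progenitor genes 23 of 29 had a higher mean (16 after TPM rescaling), 9 at an unadjusted p under 0.05, with a median of 0.18. Foxb1 was 7.23 to 12 FPKM against 3.77 to 6.19 FPKM (limma adjusted p = 0.0628). Of 23 neuron genes 0 had an unadjusted p under 0.05. Posterior Hox genes mark the stage of the trunk. Of them 13 of 14 had a higher mean (10 after TPM rescaling), 4 at an unadjusted p under 0.05, with a median of 0.20. Of the anterior ones 18 of 21 had a higher mean (13 after TPM rescaling), 5 at such a p, with a median of 0.21. Among 20 genes of the insulin-like growth factor pathway Igfbp2, a gene of a secreted binding protein, was 287, 304, 369, 430.3 and 266 FPKM against 168, 91.3, 244, 215 and 194 FPKM without overlap (adjusted p = 0.101). Without embryo 3 Igfbp2 and Igfbp3 passed as higher.

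Peg10 is abundant in placenta, so markers of placenta and uterus were checked for tissue carried along. Of 26 trophoblast markers 5 were above the filter and 7, Tpbpa among them, were listed at 0 in all 10 xHomo embryos. Their summed level was 20.8 to 32.1 FPKM in Peg10-lost, 19.9 to 29.7 FPKM in Peg10-kept and 17.9 to 19.9 FPKM in xHet embryos. Prl3b1, placental lactogen II, was 0.68, 0.59, 0.67, 0 and 0.91 FPKM against 1.59, 0.94, 1.79, 3.28 and 1.76 FPKM and 2.57, 2.69 and 0.91 FPKM in xHet embryos (adjusted p = 0.0967), and passed as lower without embryo 3 (adjusted p = 0.0257). The decidual list had 6 of 12 genes above the filter, 0 passing, and sums of 38.7 to 47.6 FPKM against 37.8 to 44.0 FPKM. Genes of the dystroglycan complex, to which the Sgce product is related, had 1 passing gene of 14, Dtnb, which encodes beta-dystrobrevin (11.9 to 16.3 FPKM against 8.82 to 10.2 FPKM, log2 difference 0.48, adjusted p = 0.0482). Without embryo 3 Sgcb of this list passed as lower, and the list median went from 0.07 to -0.07. The DNA methylation list had 0 passing genes of 14, and Tet2 was 3.83 to 6.73 FPKM against 1.49 to 3.63 FPKM (adjusted p = 0.17). Extracellular matrix genes had 0 of 24 at an unadjusted p under 0.05 and a median of 0.20. That rests on embryo 3, whose list median against the xHet mean was -1.50: without it 7 were lower at such a p, Col9a1, Fbn1 and Fbn2 passed as lower and the median was -0.08. Without embryo 3, 2138 of all 12267 genes were lower at such a p and 788 passed as lower. Of the visceral endoderm and liver list 0 of 14 passed, and of the macrophage and germline lists 1 and 3 genes were tested and 0 passed.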

How the data were processed

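RNA-seq values of 13 embryos, 10 labelled xHomo and 3 labelled xHet, were taken from 1 table of 23217 genes. The authors deposited FPKM per gene and sample with mm9 loci. Per the labels' protocols, poly(A) RNA was isolated and directional libraries were made. The tools named in the submitters' processing notes are TopHat, Cufflinks and bcl2fastq 1.8.2. The sources used here do not give other versions, the annotation, strand settings or filters. Because FPKM hold no counts, depth and counting error are unknown, and an abundant RNA can shift all other values of its library.

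The xHomo embryos were selected on their Peg10 value, below 10 FPKM or not, which is a measured outcome and not a group of the labels. Genes with a mean of at least 1 FPKM over the 10 xHomo embryos (12725) were compared on log2(FPKM+1), a scale that understates the change of low genes. limma 3.58.1 in R 4.3.3 was used (lmFit, eBayes with a trend, two-sided, no covariate), with Benjamini-Hochberg adjustment at 0.05 over all of them. Peg10, Sgce and loci on X and Y, 458 of the genes tested, are in the fit and left out of counts. This limma fit was first tested on simulated data. A fit of all 13 embryos in 3 sets gave the comparisons with xHet embryos. The members and lists were chosen with earlier results of these data known, and the roles within the hypoxia list and the contrasts with xHet embryos after values were seen.

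Named genes were, per direction, the 12 with the largest log2 difference that passed, filled to 12 by p, tested genes within 1 Mb of Peg10, imprinted genes without overlap or the 6 with the smallest p, and the members of each list that passed or up to 4 with the smallest p. Tet and further imprinted genes were set by name. All 35 tested genes of the hypoxia list were named. Those outside the rule are said to be chosen after their values were seen. Not every call within a list is reported here. Alternatives were other pseudocounts, filters and scalings, an Xist covariate, array weights, the xHet embryos in the fit, exact permutation and leaving out each embryo. Promoter windows are RefSeq sequences of GRCm38.p6, matched by symbol for 29 of 35 listed genes, and were not tied to mm9 coordinates. Tables and plots were made in Python 3.11.15 (pandas 2.3.3, numpy 2.4.6, matplotlib 3.10.9).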

Additional observations from a re-analysis of the deposited data

Results flagged for a closer look

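For 52 genes, those of the naming rule for the largest differences, the neighbours of Peg10 and imprinted genes and those set by name, each set of 5 embryos was searched for a value that lies far from the other 4 on the log2 scale by Dixon's test, which gave 24 values in 104 sets. Chance gives about 1 in 20 for genes picked without regard to their values. These genes were picked by their differences or by name with earlier results known, and they share embryos. The count is therefore a description, and an excess was not tested. Of the 24 values 7 were in Peg10-lost embryo 9, 7 in Peg10-kept embryo 3, 3 each in embryos 4 and 7, 2 in embryo 1 and 1 each in embryos 5 and 10.

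In Peg10-lost embryo 9, Tet2 was the highest of its set at 6.73 FPKM and Grb10 at 500.25 FPKM. There Tet3 (8.51 FPKM), Mest (296.09 FPKM), Ndn (45.31 FPKM), Pinx1 (9.01 FPKM) and Ddx21 (22.42 FPKM) were the lowest. In Peg10-lost embryo 7, Meg3 (0.69 FPKM) and Rian (3.18 FPKM) were the lowest and Dlk1 of the same domain the highest (299.28 FPKM). Peg3 (4.99 FPKM) and H19 (510.56 FPKM) were the lowest in embryo 1 and Impact in embryo 10 (5.63 FPKM).

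In Peg10-kept embryo 3, the values of Tet1 (1.11 FPKM), Igf2r (17.78 FPKM), Rian (94.44 FPKM), Col1a2 (27.63 FPKM), Ppp1r9a (3.07 FPKM), Pon3 (1.25 FPKM) and Stc2 (1.23 FPKM) were the lowest of their set. In Peg10-kept embryo 4, Peg3 (0.05 FPKM), Pinx1 (18.09 FPKM) and Gng11 (8.38 FPKM) were the lowest. In Peg10-kept embryo 5, Nnat was the lowest at 27.33 FPKM.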

How the results depend on the processing

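The 134 genes that passed became 57 with no filter on low values, 231 without small RNA genes, 46 with Xist as a covariate, 402 with the xHet embryos in the fit and 3917 with array weights. They became 499 with median-of-ratios scaling, 565 with quantile normalization and 360 with TPM rescaling, and 0 with the exact permutation test, where the smallest p that 10 embryos allow is 0.00794 and 1634 higher and 505 lower genes had an unadjusted p under 0.05. Array weights gave 5388 genes with an unadjusted p under 0.05 in place of 2119. Leaving out 1 embryo gave 16 (without embryo 7) to 1214 (without embryo 3) passing genes, 1455 to 3645 with an unadjusted p under 0.05 and 774 to 1686 without overlap, of 722 in the full comparison. The number of passing genes thus depended on which of these few embryos were kept: without embryos 6, 7 and 8 there were 21, 16 and 20. The cause was not tested. All 21 passing genes among those named for the largest differences kept their direction under the alternatives that could give them a value. C1qtnf3 and Arrdc4 fell under the filter of a mean of 5 FPKM. Of the 21 calls, 17 held with a pseudocount of 5, 9 without the filter, 10 with the Xist covariate, and 4 to 21 on leaving out 1 embryo. In the hypoxia list 6 to 31 genes passed on leaving out 1 embryo, with a median of 1.07 to 1.33. No paired analysis was possible because the sets compared are embryos of 1 labelled group, and no replicate number occurs in both. With depth unknown, low genes are the least certain.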
